A study of Macaca mulatta with 10 samples.

Results

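The S100A proteins are small calcium-binding proteins, and 10 of their genes are described here: S100A1, S100A2, S100A4, S100A6, S100A8, S100A9, S100A10, S100A11, S100A14 and S100A16. They were followed in ORMES6, a rhesus macaque embryonic stem (ES) cell line, on Affymetrix rhesus arrays. Every probe set annotated to one of these genes was taken, which gave 18 of the 44210 probe sets tested and 10 of the 13191 genes. The genes were chosen by their expression values in these same 5 groups, so their values and differences are given as a description and not as a test.

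The 10 arrays form 5 groups of 2. ES is the undifferentiated line, grown on mouse embryonic fibroblast feeders in DMEM/F12 with knockout serum replacement and bFGF. IVDS2 is stage 2 of in vitro differentiation, IVDS2-C and IVDS2-P are its central and peripheral parts, and IVDS3 is stage 3. The differentiated groups had been grown together with hESdF, a fibroblast-like cell derived from human ES cells, which was meant to give hepatic foci. All groups share 1 cell line, and the labels do not say whether the 2 arrays of a group came from separate cultures, so the spread between them may be technical. The array reads RNA of all cells in a sample, so fewer cells of a type cannot be told apart from less RNA per cell, nor RNA of carried-over feeder or hESdF cells from that of macaque cells where their transcripts match the probes.

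S100 proteins carry a pair of EF-hand loops, a helix-loop-helix fold that holds calcium, and mostly work as dimers that bind target proteins when calcium rises. Inside cells many of them bind annexins, the cytoskeleton or p53, and some are secreted and act on receptors such as TLR4 and AGER (RAGE). In skin and other stratified epithelia several are abundant, and their genes lie next to those of the cornified envelope, the protein shell of dead surface cells. S100A8 and S100A9 are also the main cytosolic proteins of neutrophils and monocytes.

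Values are log2 expression with each probe set centred on its own median over the 10 arrays. A value of 0 is therefore the middle of the arrays and not absence, and levels of different genes cannot be ranked. Differences between groups are from a linear model over all arrays (limma), as log2 difference ± standard error (SE) with 2 arrays a group, and "called" means a Benjamini-Hochberg adjusted p under 0.05, over all probe sets for the S100A genes unless a gene value is named, and over all genes for other genes. Across the series 44294 probe sets were deposited, the SD of replicate differences ran between 0.245 in IVDS3 and 0.403 in ES, and array medians lay within 0.050 of 0. Against ES, the ES marker POU5F1 fell by 7.60 ± 0.79 in IVDS3 and SOX2 fell by 3.16 ± 0.21, whereas NANOG rose by 1.48 ± 0.19. The 2 IVDS2-C arrays differed from each other in POU5F1, at -0.50 and -3.38. The mean of the 9 measured ES markers was -0.24 and -1.12 on them. Although the foci are labelled hepatic, 0 of 10 measured hepatocyte markers rose in IVDS3 against ES (limma; 0 also at an unadjusted p under 0.05) and 4 fell, where 21.1% of all genes rose and 28.6% fell. Among the 4 was AFP, which fell by 0.64 ± 0.12 (limma, adjusted p = 0.0022). SERPINA1 differed by 0.15 ± 0.12 (limma, adjusted p = 0.319). Single arrays differed within a group: FGB had -0.25 and 3.05 in IVDS2 and -0.39 and 0.80 in IVDS3. FGG had -0.094 and 1.59 in IVDS2 and 0.012 and 0.81 in IVDS3. The mean of the 10 hepatocyte markers was 0.25 and 0.20 in ES, -0.0095 and 0.77 in IVDS2, and -0.24 and 0.088 in IVDS3. What set those arrays apart was not tested.

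S100A8 and S100A9 form the heterodimer calprotectin, which withholds zinc and manganese from microbes and signals through TLR4. S100A8 had 0.11 and 0.23 in ES, 0.049 and -0.08 in IVDS2, -0.20 and -0.26 in IVDS2-C, -0.13 and -0.049 in IVDS2-P, and 6.96 and 6.17 in IVDS3. S100A9 had -0.23 and 0.19 in ES, -0.21 and -0.11 in IVDS2, 0.082 and 0.63 in IVDS2-C, -0.39 and -0.082 in IVDS2-P, and 7.66 and 7.30 in IVDS3. Both genes stood high on the 2 IVDS3 arrays and near 0 on the other 8, and no IVDS3 array overlapped another group. The difference of S100A8 between IVDS3 and ES was 6.40 ± 0.22, or 84.4-fold. Between IVDS3 and IVDS2 it was 6.58 ± 0.22 for S100A8 (95.8-fold) and 7.64 ± 0.22 for S100A9.

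Within stage 2 the calprotectin pair gave different values. S100A9 was 0.59 ± 0.22 higher in IVDS2-C than in IVDS2-P and S100A8 differed by -0.14 ± 0.22, with no overlap of the arrays for either gene. Neither was called, though as a gene value S100A9 was called without the first IVDS2-C array, at 0.86, and S100A8 was called lower in IVDS2-C than in ES without either IVDS3 array. Of the difference between IVDS3 and ES, IVDS2-C held 5.0% for S100A9, while for S100A8 it lay below ES by 0.40 ± 0.22. The S100A9 probe set carries the suffix _s_at, which the manufacturer gives to probe sets that can match several transcripts, and S100A9 has no other probe set here.

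S100A10, S100A11 and S100A6 are the members best known for binding annexins. S100A10 (p11) has lost calcium binding and holds ANXA2 in a heterotetramer at the plasma membrane, where it also binds plasminogen. Its values were -0.061 and 0.061 in ES, -0.22 and -0.38 in IVDS2, 0.73 and 1.16 in IVDS2-C, -0.51 and -0.72 in IVDS2-P, and 2.22 and 2.27 in IVDS3. The 5 groups did not overlap and ran, from high to low, IVDS3, IVDS2-C, ES, IVDS2, IVDS2-P. S100A10 was 2.24 ± 0.16 higher in IVDS3 than in ES (4.74-fold) and 1.56 ± 0.16 higher in IVDS2-C than in IVDS2-P (2.95-fold). The periphery lay 0.61 ± 0.16 below ES, a difference that was called for the gene value and not for the probe set, which was called only when either IVDS2-C array was left out of the model. The gene value lost its call without the second ES array (-0.55), without either IVDS2-P array (-0.72 and -0.51), and at the same -0.61 without any single IVDS2 or IVDS3 array or with the 4 arrays compared alone.

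S100A11 (calgizzarin) binds ANXA1 and takes part in growth control of keratinocytes. It had -0.41 and -0.70 in ES, 0.0022 and -0.0022 in IVDS2, 1.33 and 1.93 in IVDS2-C, -0.31 and -0.20 in IVDS2-P, and 2.70 and 2.67 in IVDS3. The groups again did not overlap, but here ES was the lowest and the periphery lay between ES and whole IVDS2. S100A11 was 3.24 ± 0.19 higher in IVDS3 than in ES (9.44-fold) and 2.18 ± 0.19 higher in IVDS2-C than in ES (4.54-fold). IVDS2-C exceeded IVDS2-P by 1.88 ± 0.19 (3.69-fold). Whole IVDS2 lay 0.56 ± 0.19 above ES, which was called only without either IVDS2-C array.

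S100A6 (calcyclin) binds annexins and SUGT1, and is found in many proliferating and epithelial cells. It has 3 probe sets, which moved together over the arrays (Pearson r at least 0.94 for each pair) but over different ranges. The _at set MmugDNA.17370.1.S1_at had 0.33 and -0.075 in ES, -0.38 and -0.54 in IVDS2, 0.075 and 0.41 in IVDS2-C, -1.29 and -1.41 in IVDS2-P, and 4.02 and 3.85 in IVDS3. On it IVDS3 was high, the periphery was lowest, and IVDS2-C overlapped ES. The difference between IVDS3 and ES was 3.80 ± 0.17 (14-fold), and IVDS2-P lay 1.48 ± 0.17 below ES (2.79-fold lower).

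The S100A6 set with the suffix _s_at had 0.035 and -0.58 in ES, -0.50 and -0.035 in IVDS2, 1.11 and 1.86 in IVDS2-C, -1.69 and -0.60 in IVDS2-P, and 5.30 and 5.37 in IVDS3. It gave 5.61 ± 0.37 for IVDS3 against ES (48.8-fold) and put IVDS2-C 1.76 ± 0.37 above ES, a call that was lost without the second ES array (1.45) or the second IVDS2-C array (1.38). The third set, MmugDNA.43216.1.S1_at, spanned less, with 1.70 and 1.53 in IVDS3 against -0.12 and 0.0097 in ES. For IVDS2-C against IVDS2-P the 3 sets gave 1.59 ± 0.17, 2.63 ± 0.37 and 0.19 ± 0.13, of which the third was not called. For IVDS2-P against ES they gave -1.48 ± 0.17, -0.87 ± 0.37 and -0.07 ± 0.13, of which only the first was called. The size of the S100A6 difference thus varied between the probe sets, while all 3 put IVDS3 above ES.

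**Figure D1:**
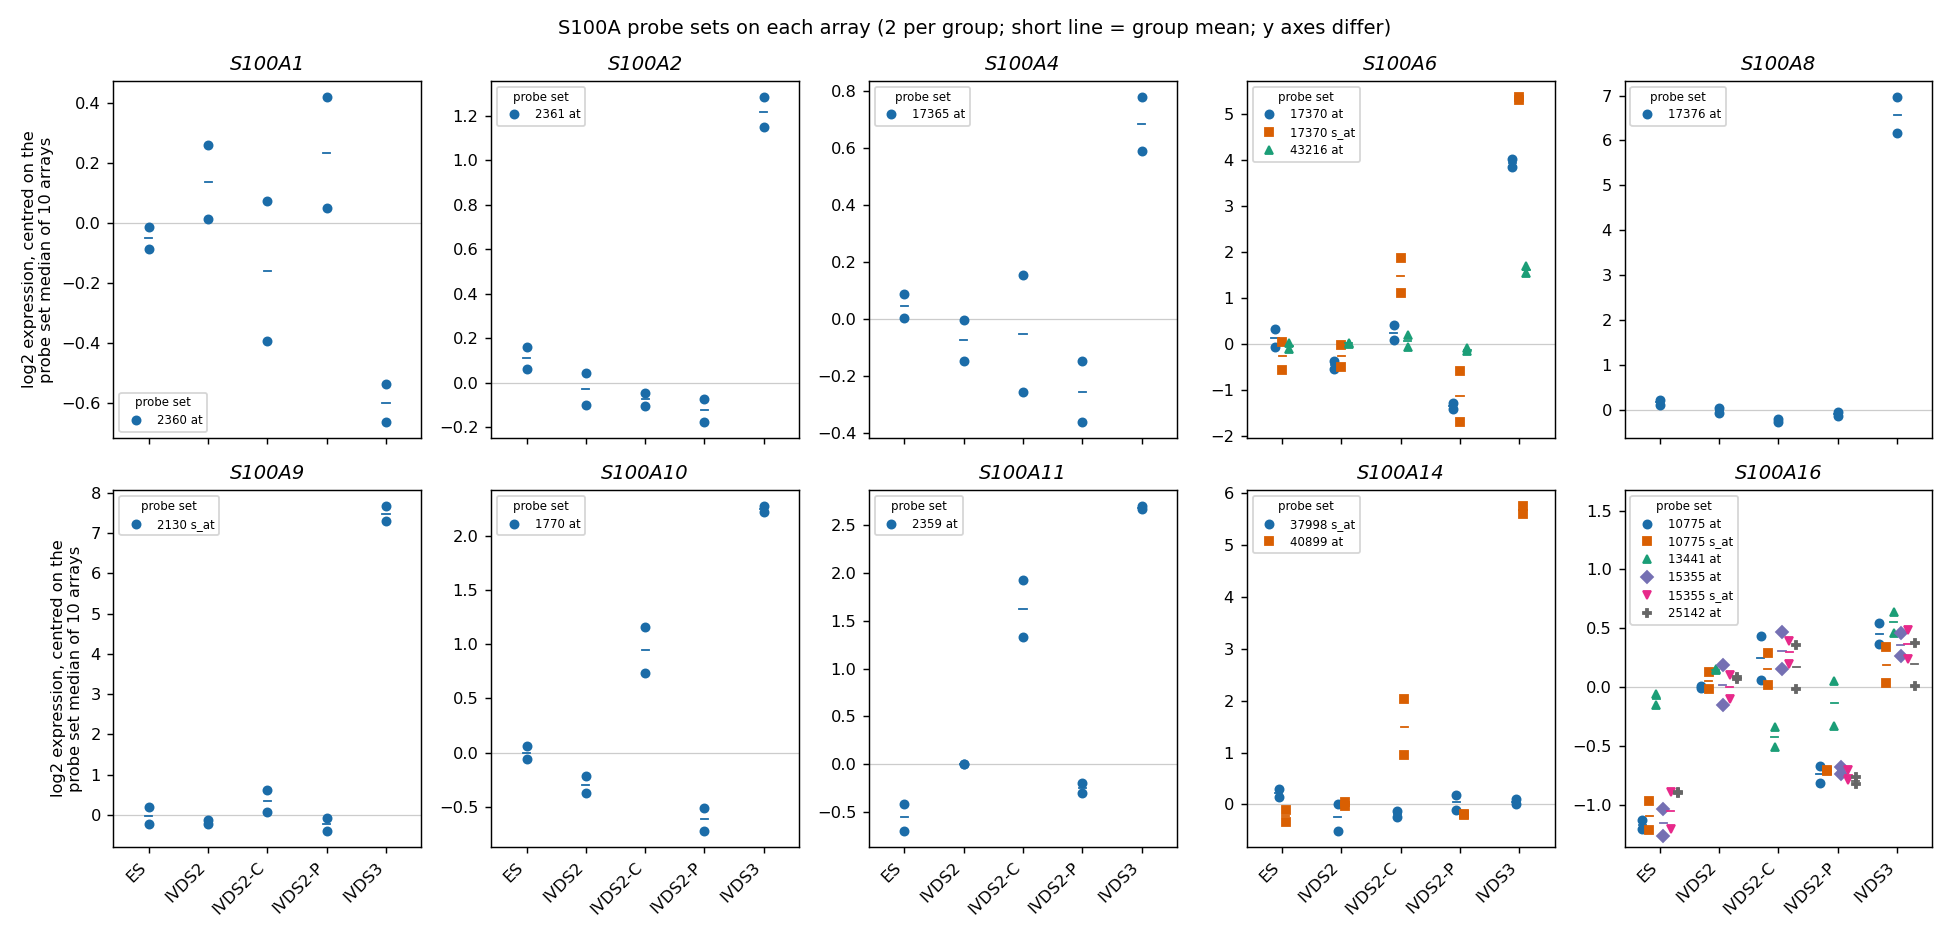
Centred log2 expression (y axis, one scale per panel) of each S100A gene on each array, by group (x axis), with a colour and symbol per probe set, points for arrays and a short line for the mean of the 2 arrays. S100A8 and S100A9 are high in IVDS3 alone, S100A10, S100A11 and one S100A14 probe set are also raised in IVDS2-C, and 5 of 6 S100A16 probe sets are high in IVDS2, IVDS2-C and IVDS3.

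S100A14, S100A16 and S100A2 are members known mainly from epithelia. S100A14 is a cytoplasmic and membrane protein of epithelial cells with impaired calcium binding. Its set MmugDNA.40899.1.S1_at had -0.34 and -0.10 in ES, 0.037 and -0.037 in IVDS2, 0.94 and 2.03 in IVDS2-C, -0.20 and -0.19 in IVDS2-P, and 5.75 and 5.60 in IVDS3. Both IVDS2-C arrays lay above the 6 other arrays of ES and stage 2, though they differed from each other by more than those did. The difference was 5.90 ± 0.28 for IVDS3 against ES (59.7-fold) and 1.71 ± 0.28 for IVDS2-C against ES (3.27-fold).

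The other S100A14 set, MmugDNA.37998.1.S1_s_at, did not share this pattern. It had 0.29 and 0.15 in ES, 0.0022 and -0.51 in IVDS2, -0.13 and -0.24 in IVDS2-C, 0.18 and -0.11 in IVDS2-P, and -0.0022 and 0.10 in IVDS3. All 10 values lay close to 0, IVDS3 differed from ES by -0.17 ± 0.18, and the correlation between the 2 sets over the arrays was 0.04. A mean over the S100A14 probe sets therefore averages a large difference with none, and the sets are kept apart here except in the search for like genes, which uses gene means.

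S100A16 is a broadly expressed member with 1 working calcium site per subunit, known from fat cell formation and tumours. Of its 6 probe sets, 5 moved together (r at least 0.96 for each pair), and MmugDNA.10775.1.S1_at stands for them. It had -1.21 and -1.13 in ES, 0.011 and -0.011 in IVDS2, 0.063 and 0.43 in IVDS2-C, -0.81 and -0.67 in IVDS2-P, and 0.37 and 0.54 in IVDS3. ES and the periphery were low without overlap, and the 3 remaining groups lay near each other at the top. On this set alone of the S100A16 sets IVDS3 was called higher than IVDS2, by 0.45 ± 0.15. That call was lost without any single IVDS2, IVDS2-P or IVDS3 array (0.37 to 0.54). Over the 5 sets the difference from ES was 1.09 to 1.62 in IVDS3 (2.13-fold to 3.08-fold), 1.06 to 1.46 in IVDS2-C, 0.97 to 1.17 in IVDS2 and 0.10 to 0.44 in IVDS2-P, the last not called for any of them.

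The sixth S100A16 set, MmugDNA.13441.1.S1_at, correlated with the others at 0.28 to 0.35. It had 0.64 and 0.46 in IVDS3 against -0.056 and -0.15 in ES, a difference of 0.65 ± 0.15 whose call was lost without the first IVDS3 array (0.57). It was lowest in IVDS2-C, at -0.51 and -0.34. Its place in the centre was thus opposite to that of the 5 other sets. The platform annotation does not say which transcript each set reads, and the cause of the disagreement was not tested.

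S100A2, a protein of basal keratinocytes that binds p53, had 0.061 and 0.16 in ES, -0.10 and 0.044 in IVDS2, -0.11 and -0.044 in IVDS2-C, -0.071 and -0.17 in IVDS2-P, and 1.28 and 1.15 in IVDS3. The IVDS3 arrays stood apart from the other 8, by 1.10 ± 0.12 from ES (2.15-fold), and the centre differed from the periphery by 0.05 ± 0.12.

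S100A4 and S100A1 are known from cells other than keratinocytes. S100A4, which binds the nonmuscle myosin MYH9 and is used as a marker of fibroblasts and motile cells, had 0.089 and 0.0033 in ES, -0.15 and -0.0033 in IVDS2, 0.15 and -0.26 in IVDS2-C, -0.15 and -0.36 in IVDS2-P, and 0.59 and 0.78 in IVDS3. IVDS3 lay above every other array, but the difference from ES was only 0.64 ± 0.16 (1.56-fold), and its call was lost without the second ES array (0.59) or the second IVDS3 array (0.54).

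S100A1, the heart muscle member that acts on RYR2 and ATP2A2, was the one gene lower in IVDS3. Its values were -0.087 and -0.013 in ES, 0.013 and 0.26 in IVDS2, 0.073 and -0.39 in IVDS2-C, 0.051 and 0.42 in IVDS2-P, and -0.66 and -0.54 in IVDS3. No IVDS3 array overlapped the rest, and the 2 IVDS2-C arrays differed from each other more than those of any other group. It was 0.74 ± 0.19 lower in IVDS3 than in IVDS2 (1.66-fold lower) and differed by -0.55 ± 0.19 from ES, a call that was lost when each array was centred on its median (-0.49) and when any single ES, IVDS2 or IVDS3 array was left out (-0.61 to -0.49). The call against IVDS2 was lost without the second IVDS2 array (-0.61) or either IVDS3 array.

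Counted over the 18 probe sets, 17 were called between IVDS3 and ES, 16 higher and 1 lower, where 37.8% of all probe sets were called, 17.9% higher and 19.9% lower. The 16 belong to 9 genes and the 1 to S100A1. The median difference of the 18 was 1.57, against -0.11 over all probe sets. Between IVDS3 and IVDS2, 12 were called (11 higher, 1 lower) where 28.6% of all probe sets were, 13.6% higher and 15% lower. Since these values chose the genes, the shares are given side by side and nothing is read from them.

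In the stage 2 groups fewer sets were called. Against ES it was 5 in IVDS2, all 5 higher and all of S100A16, where 8.71% of all probe sets were called (4.92% higher, 3.79% lower). It was 9 in IVDS2-C, all higher, from S100A6, S100A10, S100A11, S100A14 and S100A16, where 21.5% of all were called (11.3% higher, 10.2% lower). In IVDS2-P it was 1, S100A6, which was lower, where 7.55% of all were called (4.97% higher, 2.58% lower). Without either IVDS2-C array in the model, 2 were called in the periphery.

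Between IVDS2-C and IVDS2-P 10 of the 18 probe sets were called, where 5.84% of all probe sets were (3.85% higher, 2% lower), and all 10 were higher in the centre. They belong to S100A6, S100A10, S100A11, S100A14 and S100A16, and each was higher on the second IVDS2-C array than on the first. This count rests on few arrays: it was 5 without the second IVDS2-C array, 4 without the first IVDS2-P array and 6 without the second. Of the 5 agreeing S100A16 sets, all lost the call without the first IVDS2-P array and without the second IVDS2-C array, with differences of 0.73 to 1.05. The _at set of S100A14 lost its call without either IVDS2-P array and with the 4 arrays compared alone, at 1.68.

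**Figure D2:**
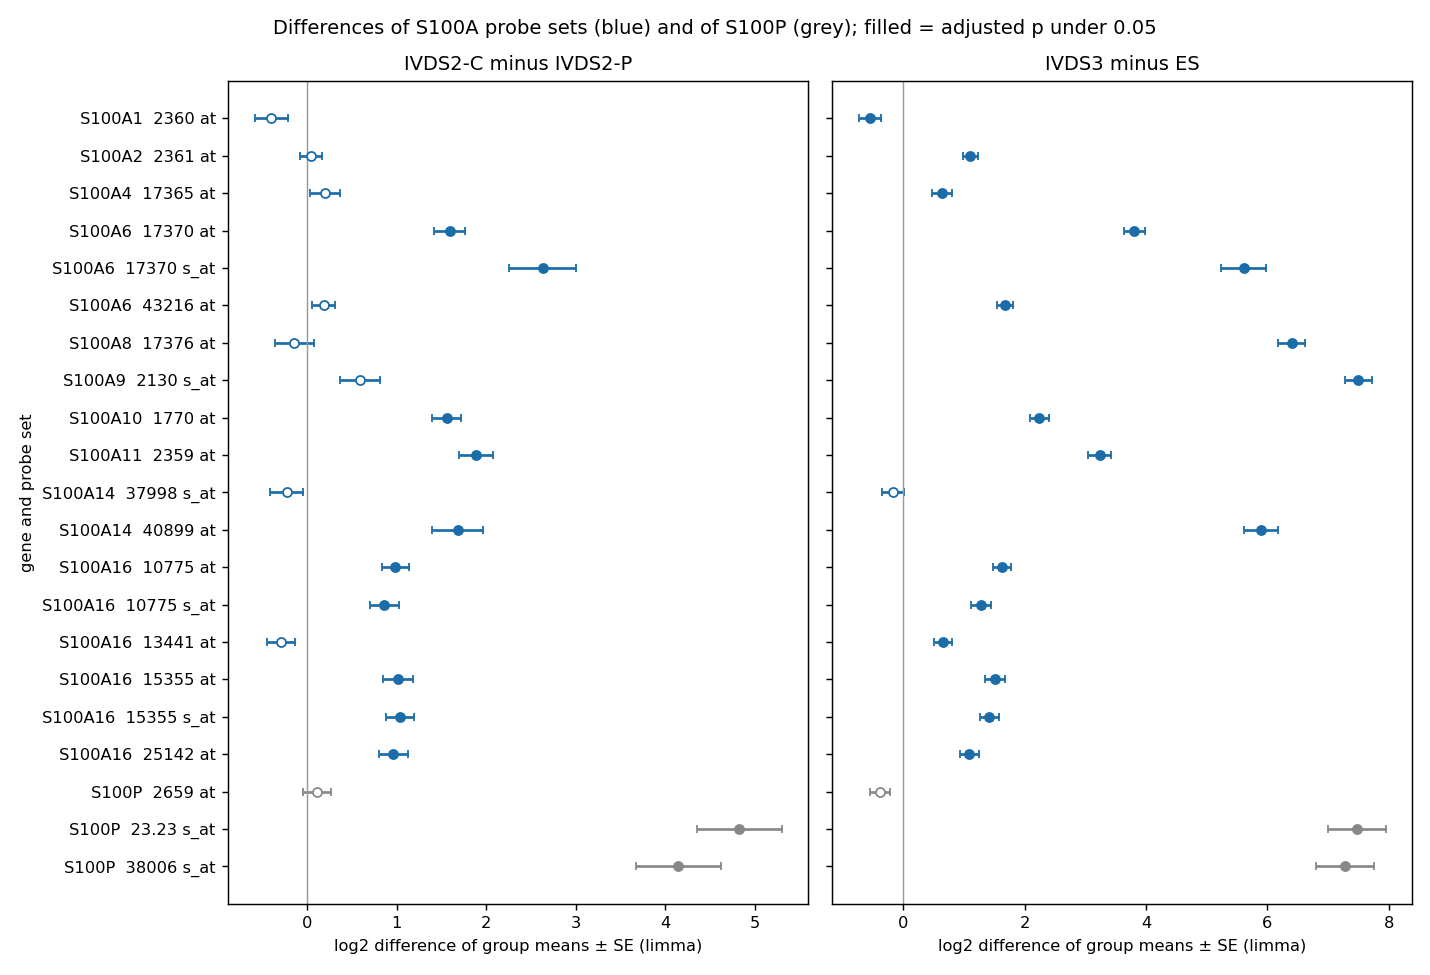
Log2 difference of group means with SE bars (x axis) for each S100A probe set in blue and for S100P in grey (y axis), for IVDS2-C minus IVDS2-P on the left and IVDS3 minus ES on the right; filled points are called. The 10 filled blue points on the left lie between 0.86 and 2.63. Of the blue points on the right, S100A9, S100A8 and a set of S100A14 lie furthest from 0. The _s_at sets of S100P, in grey, lie there at 7.48 and 7.28.

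The members differed in how much of their stage 3 difference was already seen at stage 2. As a share of the difference between IVDS3 and ES, IVDS2-C held 87.2% to 97.7% for the 5 agreeing S100A16 sets, 67.4% for S100A11, 42.1% for S100A10 and 29.0% for S100A14 (MmugDNA.40899.1.S1_at). The 3 S100A6 sets disagreed, with 31.3% on the _s_at set and 3.0% and 6.7% on the others. For S100A9 the share was 5.0%, and S100A8 lay below ES. In the periphery no member had over 30.0% of it on these sets, and the means of S100A6, S100A8, S100A9 and S100A10 were below ES. Of their probe sets only 1, of S100A6, was called lower than ES. The differences of S100A8 (-0.26 ± 0.22) and S100A9 (-0.22 ± 0.22) were not called. These shares have no test, and all use the same ES and IVDS3 arrays.

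Whole IVDS2 cultures sat at different places between their periphery and their centre. Measured from IVDS2-P as a share of the difference between IVDS2-C and IVDS2-P, whole IVDS2 lay at 11.6% for S100A14 (MmugDNA.40899.1.S1_at), 13.6% for S100A11 and 20.4% for S100A10, close to the periphery. For the S100A6 sets of MmugDNA.17370 it lay at 33.3% and 55.9%. For the 5 agreeing S100A16 sets it lay at 71.2% to 90.6%, close to the centre. Among the sets called between centre and periphery, those of S100A16 thus had the whole culture nearest to the centre. The third S100A6 set, not called there, lay at 75.1%, within the range of those S100A16 sets. The sixth S100A16 set, also not called, lay at -99.6%, outside the stretch between periphery and centre.

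Of 18 other genes that were looked for, 5 were measured: S100A5, S100B, S100P, the fused-type gene CRNN, and S100PBP. The last is a binding protein of S100P and not an S100 gene. All others looked for were S100 genes or their fused-type relatives. S100P, a placental and epithelial member that binds ezrin and AGER, rose in IVDS3 against ES by 4.79 ± 0.35 as a mean of its 3 probe sets (limma, adjusted p = 1.11e-05). S100B, a glial member, rose by 0.66 ± 0.19 (adjusted p = 0.0193), and S100PBP fell by 0.53 ± 0.17 (adjusted p = 0.027). S100A5 (-0.14 ± 0.16) and CRNN (-0.30 ± 0.12, adjusted p = 0.0703) did not pass. So 2 of the 5 rose and the 1 that fell was the binding protein, where 49.7% of all genes were called (21.1% higher, 28.6% lower). The median of the 5 was -0.14, against -0.13 over all genes. Without the second IVDS3 array 1 of the 5 was called, with S100B at 0.54 and S100PBP at -0.50. S100B also lost its call without the first ES array (0.51) and S100PBP without the second ES array (-0.40) or the first IVDS3 array.

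The S100P mean hides a split between its sets. One of its _s_at sets had -0.17 and 0.16 in ES, -0.36 and -0.16 in IVDS2, 3.59 and 5.52 in IVDS2-C, -0.35 and -0.18 in IVDS2-P, and 7.29 and 7.66 in IVDS3. S100P was thus near 0 in whole IVDS2 and in the periphery, and high in the centre and in IVDS3. On this set S100P rose in IVDS2-C against IVDS2-P by 4.82 ± 0.48 (limma, adjusted p = 0.000863) and in IVDS3 against ES by 7.48 ± 0.48 (adjusted p = 5.02e-06), and IVDS2-C held 61.0% of the stage 3 difference. A second _s_at set gave 4.14 ± 0.48 and 7.28 ± 0.48 for the same comparisons. The third set, without that suffix, stayed between -0.26 and 0.43 on all arrays and was not called in these comparisons. Between the centre and the periphery S100P was the 1 gene of these 5 that was called, where 9.59% of all genes were (5.64% higher, 3.95% lower).

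Against IVDS2, 3 of the 5 were called in IVDS3, where 39.7% of all genes were (17.6% higher, 22.2% lower). S100P rose by 4.87 ± 0.35 (limma, adjusted p = 1.52e-05), S100B rose by 0.69 ± 0.19 (adjusted p = 0.0202), and CRNN fell by 0.44 ± 0.12 (adjusted p = 0.0208). This count dropped to 1 without the second IVDS2 or the second IVDS3 array.

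Of 18 genes for proteins that S100 members bind or act through, 13 were measured, and in IVDS3 against ES 5 rose, 4 fell and 4 did not pass, where 21.1% of all genes rose and 28.6% fell. Their median was 0.09, against -0.13 over all genes. ANXA1, the partner of S100A11, rose by 4.98 ± 0.56 (limma, adjusted p = 0.000101) and ANXA2, the partner of S100A10, by 1.18 ± 0.20 (adjusted p = 0.00131). AHNAK, a scaffold bound by S100A10 and ANXA2, rose by 1.08 ± 0.16 (adjusted p = 0.000486), PLAU, the protease that activates plasminogen, by 1.70 ± 0.35 (adjusted p = 0.0031), and MYH9 by 0.52 ± 0.13 (adjusted p = 0.00979). The heart muscle targets of S100A1 fell, RYR2, the calcium release channel, by 1.14 ± 0.22 (adjusted p = 0.00237) and ATP2A2, the calcium pump, by 0.54 ± 0.15 (adjusted p = 0.0149). RYR2 already differed from ES by -1.01 ± 0.22 in whole IVDS2, which was called, and by -0.13 ± 0.22 between IVDS3 and IVDS2, which was not. AHNAK and MYH9 were also called higher than ES in whole IVDS2, by 0.89 ± 0.16 and 0.50 ± 0.13. Between IVDS3 and IVDS2 they differed by 0.19 ± 0.16 and 0.02 ± 0.13, neither called. ANXA6, another annexin, fell by 1.05 ± 0.15 (adjusted p = 0.000372), and SUGT1, the partner of S100A6, by 0.53 ± 0.13 (adjusted p = 0.00699). MYH9 lost its call without the second IVDS3 array (0.48), SUGT1 without the first (-0.44), and ATP2A2 without the first ES array (-0.47) or the first IVDS3 array (-0.45).

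For the receptors of secreted S100 proteins no difference between IVDS3 and ES was called. TLR4 differed by 0.09 ± 0.15 and AGER by -0.20 ± 0.13 between IVDS3 and ES, and BSG, a receptor of S100A9, by -0.51 ± 0.19 (limma, adjusted p = 0.0562). BSG passed when its most variable probe set stood for it, at -1.27, and with several single arrays left out. BSG fell in IVDS3 against IVDS2, by 0.84 ± 0.19 (adjusted p = 0.0079), or by 0.58 and no longer called without the second IVDS2 array.

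ANXA1 showed how far its arrays spread: it had -0.059 and -2.19 in ES, -0.10 and 0.024 in IVDS2, 1.78 and 2.49 in IVDS2-C, -0.50 and -0.90 in IVDS2-P, and 4.07 and 3.64 in IVDS3. The 2 ES arrays differed more than any other pair, and both IVDS2-C arrays lay above ES, IVDS2 and the periphery. Between the centre and the periphery 4 of the 13 partners rose and 0 fell (limma; 6 and 1 at an unadjusted p under 0.05), where 5.64% of all genes rose and 3.95% fell. They were ANXA1 by 2.83 ± 0.56 (limma, adjusted p = 0.0163), PLAU by 2.55 ± 0.35 (adjusted p = 0.00317), MYH9 by 0.90 ± 0.13 (adjusted p = 0.00441) and AHNAK by 0.63 ± 0.16 (adjusted p = 0.0408). ANXA2 had 0.077 and 0.35 in IVDS2-C against -0.56 and -0.32 in IVDS2-P, without overlap but not called. The count of 4 became 2 without the second IVDS2-C array or without either IVDS2-P array, with ANXA1 at 2.48 to 3.04 and AHNAK at 0.49 to 0.77. ANXA2 was called without either ES array.

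Against IVDS2, 4 of the 13 partners rose in IVDS3 and 3 fell, where 17.6% of all genes rose and 22.2% fell. ANXA1 rose by 3.90 ± 0.56 (limma, adjusted p = 0.000634) and ANXA2 by 0.92 ± 0.20 (adjusted p = 0.00667), together with PLAU and MDM2, the regulator of p53, and ANXA6 and ATP2A2 fell with BSG. The 7 called became 4 without the second IVDS2 array or without either IVDS3 array.

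The cornified envelope is the setting in which S100A8, S100A9, S100A10 and S100A11 are known together, and 18 of 30 listed genes of it were measured. In IVDS3 against ES 10 rose and 3 fell, where 21.1% of all genes rose and 28.6% fell, and the median was 0.59 against -0.13 over all genes. CSTA, a protease inhibitor of the envelope, rose by 6.62 ± 0.38 (limma, adjusted p = 3.36e-06), the keratin KRT1 by 5.73 ± 0.21 (adjusted p = 3.22e-07), SCEL, a precursor of the envelope, by 5.70 ± 0.25 (adjusted p = 7.76e-07) and SPRR1B by 4.09 ± 0.18 (adjusted p = 8.41e-07). IVL (involucrin) rose by 2.86 ± 0.27 (adjusted p = 4.42e-05). The 3 that fell were KLK7, a protease that sheds surface cells, by 2.01 ± 0.21 (adjusted p = 6.85e-05), KLK5, a protease of the same family, and CNFN. Against IVDS2, 11 rose and 2 fell in IVDS3, where 17.6% of all genes rose and 22.2% fell. In IVDS2-C against ES CSTA rose by 2.09 ± 0.38 (limma, adjusted p = 0.00393), while KLK7 fell by 1.96 ± 0.21 and KLK5 by 0.79 ± 0.13. SCEL, at 0.65 ± 0.25, and KRT1, at 0.56 ± 0.21, were not called in that comparison.

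Between IVDS2-C and IVDS2-P 0 of the 18 envelope genes rose and 1 fell (limma; 3 and 2 at an unadjusted p under 0.05), where 5.64% of all genes rose and 3.95% fell, so these counts are near the background. The gene that fell was KLK7, which fell by 0.91 ± 0.21 (limma, adjusted p = 0.0302). The largest positive differences there were of CSTA, at 1.11 ± 0.38, and KRT1, at 0.68 ± 0.21, neither of which was called. The count of 1 was 4 without the first IVDS2-C array and 0 without the second or without the first IVDS2-P array.

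**Figure D3:**
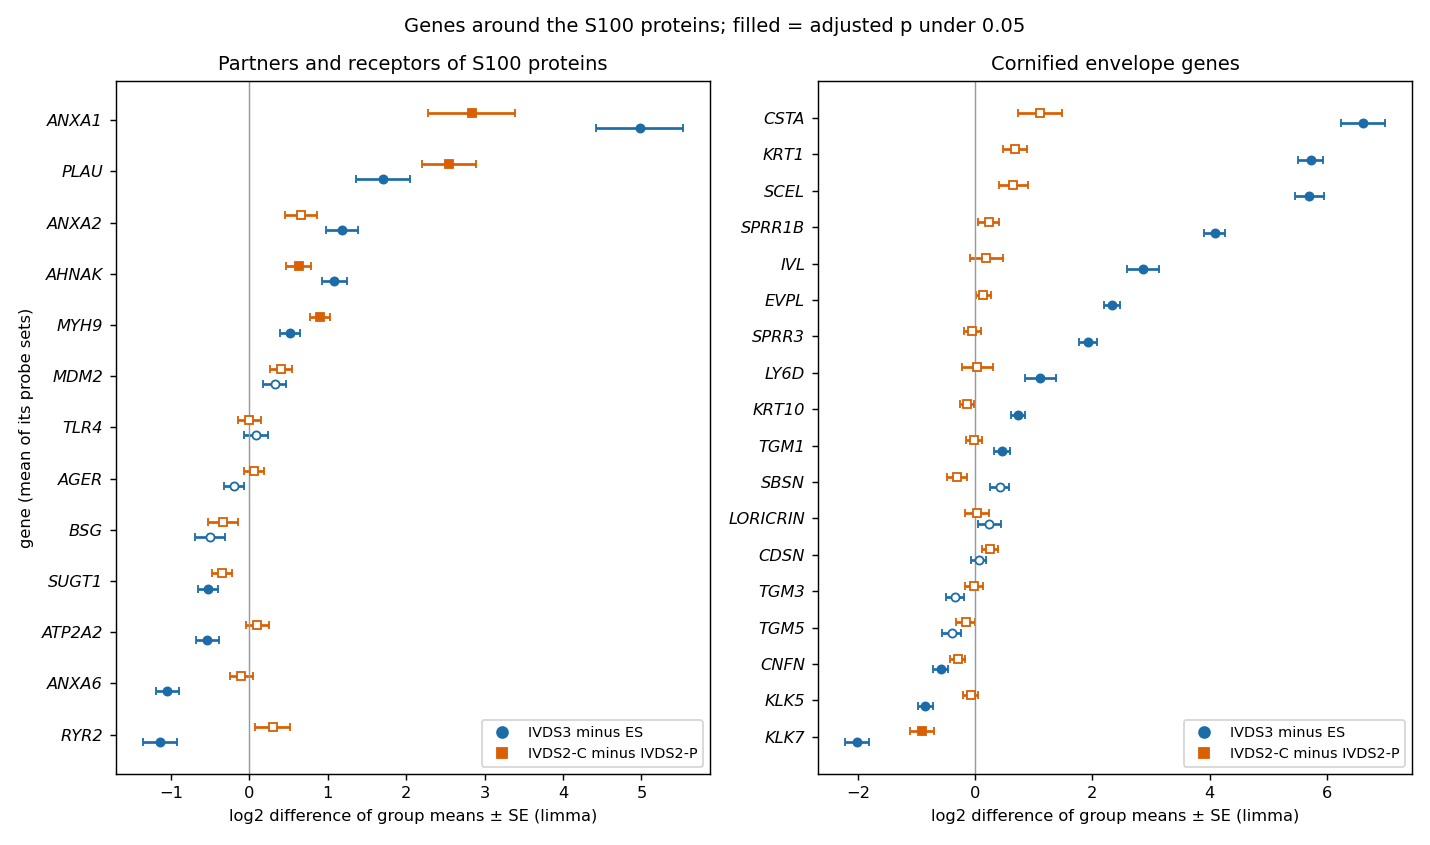
Log2 difference of group means with SE bars (x axis) for each measured partner or receptor on the left and each envelope gene on the right (y axis), with circles for IVDS3 minus ES and squares for IVDS2-C minus IVDS2-P; filled symbols are called. ANXA1, PLAU, AHNAK and MYH9 have both symbols filled to the right of 0, while on the envelope side the only filled square is KLK7, left of 0.

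All 10 members lie on chromosome 1 in the RefSeq gene table of the macaque, whose assembly, T2T-MMU8v2.0, is not stated for the arrays. S100A1 comes at one end, then S100A14, S100A16, S100A2, S100A4, S100A6, S100A8 and S100A9, and S100A11 and S100A10 follow on the far side of the filaggrin-type genes. S100A14 and S100A16, neighbours in that order, differed in where whole IVDS2 lay, while S100A8 and S100A9, with S100A12 between them, both stood high in IVDS3. Of 69 other genes in the stretch between the outermost members 14 were measured, and in IVDS3 against ES 3 rose (SPRR1B, SPRR3 and IVL) and 3 fell, where 49.7% of all genes were called, with a median of 0.08. Between the centre and the periphery 0 of the 14 were called (limma; 1 at an unadjusted p under 0.05), where 9.59% of all genes were. This stretch was chosen after the values were seen.

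The genes whose profile over the 10 arrays was most like that of a member were sought for the 6 members whose group means spanned at least 2 log2 units, among 1040 genes of the same span. For S100A8 they were PLAAT2, SERPINB7 and KRTDAP, a keratinocyte differentiation protein (Pearson r 0.999 each). For S100A9 they were the keratins KRT23 (0.999) and KRT1 (0.998) and the checkpoint ligand CD274 (0.998). For S100A10 they were FBXO6 (0.995), RNF144B (0.992) and CARD6 (0.986), and for S100A11 IFI27 (0.993), DDX60 (0.992), both interferon-induced, and the actin-severing GSN (0.988). For S100A6 they were the class I genes MAMU-AG (0.994) and MAMU-A (0.988), of a multigene family whose probe sets may share targets, and the protease CTSH (0.990). For the mean of the S100A14 sets they were SSH3 (0.997), CLDN8 (0.996) and MX2 (0.995).

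The step at IVDS3 carries part of this likeness. Over the 8 arrays without IVDS3, r with S100A8 was 0.836 for PLAAT2, 0.420 for SERPINB7 and 0.810 for KRTDAP, and with S100A9 it was 0.946 for KRT23 and 0.767 for CD274. It was 0.988 between S100A10 and FBXO6 and 0.981 between S100A11 and IFI27. All points share arrays and a normalization, so these values describe the arrays.

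Markers of other cells were read on the same arrays. Of 17 listed markers of myeloid cells, the main source of calprotectin in the body, 12 were measured; 4 rose and 2 fell in IVDS3 against ES, where 49.7% of all genes were called (21.1% higher, 28.6% lower). LYZ (lysozyme) rose by 4.98 ± 0.26 (limma, adjusted p = 1.91e-06), LCP1 by 3.12 ± 0.23 (adjusted p = 1.15e-05), CSF1R by 0.83 ± 0.17 (adjusted p = 0.00361) and CD68 by 0.83 ± 0.15 (adjusted p = 0.0017). ITGAM fell by 2.14 ± 0.16 (adjusted p = 1.25e-05) and ELANE by 0.42 ± 0.14 (adjusted p = 0.0316), a call lost when any single ES or IVDS3 array was left out. The leukocyte marker PTPRC (-0.01 ± 0.14), the monocyte marker CD14 (0.02 ± 0.14) and the neutrophil genes CSF3R (0.15 ± 0.16) and MPO (0.01 ± 0.12) differed by less than 0.2 on the log2 scale. The mean of the 12 was 0.66 and 0.71 on the IVDS3 arrays, against -0.01 and 0.17 on the ES arrays. Between the centre and the periphery 3 rose, LCP1 by 3.59 ± 0.23 among them, and 1 fell, where 9.59% of all genes were called.

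Of 15 listed fibroblast markers 10 were measured, and 5 rose and 2 fell in IVDS3 against ES, where 21.1% of all genes rose and 28.6% fell. LUM (lumican) rose by 5.48 ± 0.21 (limma, adjusted p = 3.85e-07) and DCN (decorin) by 4.57 ± 0.16 (adjusted p = 2.19e-07), together with COL1A2, FAP and COL3A1, while THY1 fell by 1.31 ± 0.14 and COL1A1 fell by 0.74 ± 0.24, the last no longer called when any single ES or IVDS3 array was left out. Their mean was 1.53 and 1.34 in IVDS3, 0.43 and 0.36 in IVDS2-C, and between -0.21 and -0.05 on the arrays of the 3 other groups. In IVDS2-C the markers differed among themselves: LUM had 1.87 and 2.23 and COL1A2 had 1.19 and 0.86, while THY1 had -0.34 and -0.33 and COL1A1 had -0.04 and -0.28. S100A10, S100A11, 5 of the 6 S100A16 sets and 1 set each of S100A6 and S100A14 were also called above ES in IVDS2-C and IVDS3. Those S100A16 sets were called above ES in whole IVDS2 as well. The part of fibroblast markers in these differences was not tested. Centring removes the absolute level, so no marker can be said to be absent.

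**Figure D4:**
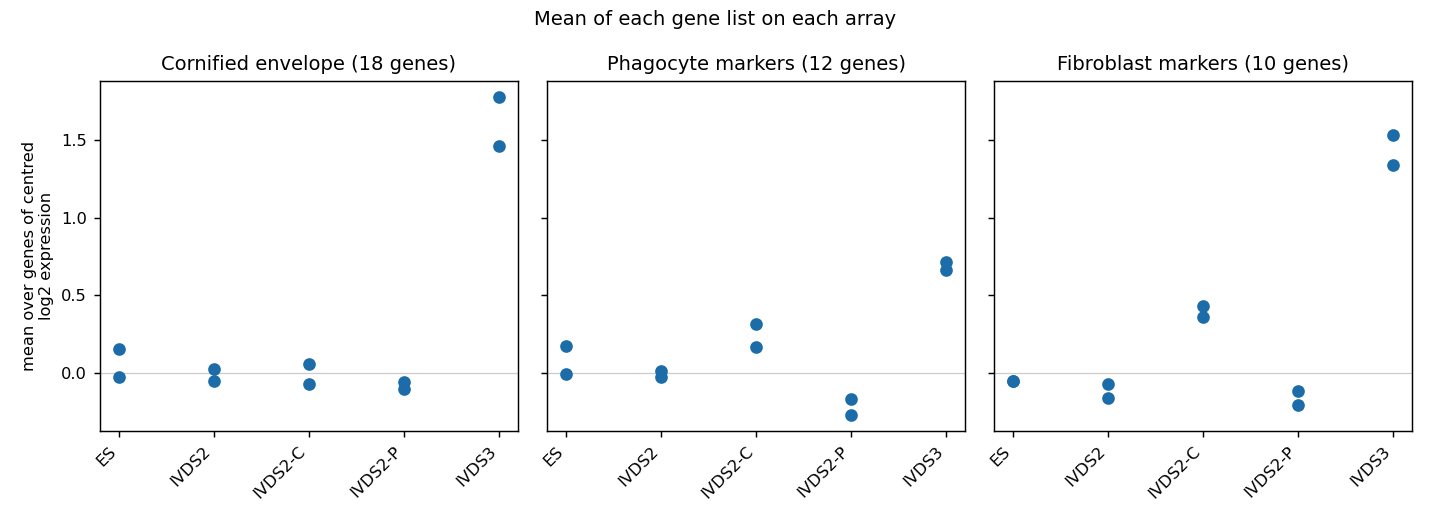
Mean over the measured genes of centred log2 expression (y axis) on each array (points) by group (x axis) for cornified envelope genes, phagocyte markers of the myeloid list and fibroblast markers. The envelope mean is high in IVDS3 alone (1.78 and 1.46), and the fibroblast mean is raised in IVDS2-C as well.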

How the data were processed

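RNA of 10 samples was hybridised to Affymetrix rhesus macaque arrays. Per the submitters' processing notes RMA was used, with no version given, and the deposited unit is log2 expression; the log base was inferred from the largest range over the arrays, 9.51. The authors' table is centred per probe set, as the values show. From it 84 control probe sets were left out. Of the 44210 tested, 22802 name 1 gene and 316 several, and a gene's value is the mean of its sets. One linear model over all arrays, with the group as its only factor, was fitted in limma 3.58.1 under R 4.3.3 (5 residual and 4.33 prior degrees of freedom) for 6 comparisons. The number of arrays limits the precision.

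Members and gene lists were chosen with earlier results of these data known. Named are the members, up to 5 called genes per list and comparison, the measured S100 relatives with S100PBP, and the 3 genes most like a member. Called cell markers and landmarks are named too. Uncalled receptors, uncalled partners, ANXA2 in stage 2, uncalled envelope genes, uncalled markers, FGB and FGG were added after their values were seen. The main model did not pair samples by replicate number. Correlations of same-numbered deviations ran from -0.119 to 0.254, the highest between IVDS2 and IVDS2-P. Whether same-numbered arrays shared a culture or a run cannot be told from these. The fit was tested on simulated data. Alternatives were centring each array, the 4 arrays compared alone, the replicate block, each array left out, the most variable probe set of a gene, and, added after seeing the data, dropping _s_at sets.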

Additional observations from a re-analysis of the deposited data

How the results depend on the processing

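Directions were compared for the S100A genes and their probe sets, the S100 relatives with S100PBP, partners, envelope genes, and myeloid and fibroblast markers. Among these, no direction of a called value turned under any alternative that was run. The landmarks, the single S100P sets and the other EF-hand genes were not compared in this way. Counts of called S100A probe sets with each array left out in turn ran between 5 and 6 for IVDS2 against ES, 8 and 9 for IVDS2-C, 1 and 2 for IVDS2-P, 15 and 17 for IVDS3, 4 and 10 for IVDS2-C against IVDS2-P, and 9 and 12 for IVDS3 against IVDS2. For the other S100 genes they ran between 1 and 3 for IVDS3 against ES and against IVDS2, for partners between 7 and 10 against ES, 4 and 7 against IVDS2, and 2 and 5 for the centre against the periphery, and for the envelope between 12 and 15, 11 and 13, and 0 and 4. Without _s_at sets, chosen after seeing the data, 3 S100A sets were called in IVDS2 against ES, since 2 of the 5 are of that kind. With the replicate block 2 envelope genes were called between centre and periphery, against 1 without it, and with the 4 arrays compared alone 0; no other count moved by over 1.5 times with the block. The call of S100A1 in IVDS3 against ES was lost with the block. With 2 arrays a group no array could be tested as standing apart.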

Other observations

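Other calcium-binding proteins with EF hands did not all go one way. Of 40 listed genes outside the S100 family 31 were measured, and in IVDS3 against ES 9 rose and 9 fell, near the 21.1% of all genes that rose and the 28.6% that fell, with a median of -0.16 against -0.13 over all genes. NCALD, a neuronal calcium sensor, rose by 2.04 ± 0.31 (limma, adjusted p = 0.000625). TESC, a regulator of a sodium-proton exchanger, fell by 2.34 ± 0.18 (adjusted p = 1.7e-05) and VSNL1, a visinin-like sensor, fell by 1.87 ± 0.31 (adjusted p = 0.000953). CALM3, one of the calmodulin genes, fell by 0.90 ± 0.14.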
